A study of Komagataella phaffii GS115 with 12 samples.

Results

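In 47 of the 2390 rows of the deposited value table, the lowest of the 9 values from engineered strains lay above the highest of the 3 values from the empty-vector strain. The 42 rows described here are those left after 5 were set aside. The rows YDR502C and YLR180W, which carry the S. cerevisiae names of the S-adenosylmethionine synthetase genes SAM2 and SAM1, were left out by name. Another 3 rows, YAR020C, YDR519W and YHR010W, were left out because all 3 values of G12-CBS at 72 h stood above the other 9 arrays. The members were thus chosen by the deposited values themselves, and the differences of the members from the empty-vector strain describe the choice and are given with no test.

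The arrays measured total RNA, labelled with Cy3, from Komagataella phaffii GS115, the methylotrophic yeast also called Pichia pastoris, grown in shake flasks of BSM medium with glycerol and induced with methanol. G12-CBS carried DS56, a recombinant methionine adenosyltransferase gene, together with the weak promoter G12 placed to lower CYS4, and was sampled at 72 h of methanol. The same strain was sampled at 24 h of methanol without L-methionine. The strain GS115/DS56, called DS56 here, carried the DS56 gene alone and was sampled at 72 h. The control strain GS115/3.5K carried the empty vector pPIC3.5K and was also sampled at 72 h. L-methionine had been added after 24 h of methanol to all groups but G12-CBS at 24 h, and every group held 3 arrays from separate cultures. No empty-vector culture was sampled at 24 h, so in that group time, feeding and engineering cannot be told apart in a difference from the control. Neither the promoter nor the copy number of the DS56 gene is given by the labels.

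S-adenosylmethionine is made from methionine and ATP by methionine adenosyltransferase and is the methyl donor of most methylation reactions in the cell. Once it has given its methyl group it becomes S-adenosylhomocysteine, which is split to homocysteine. Homocysteine is either methylated back to methionine or drawn by cystathionine beta-synthase, the product of CYS4, into cysteine and glutathione. The 42 row names are systematic open reading frame (ORF) names of S. cerevisiae, and 0 of the 2390 names in the table occurred among the 5040 K. phaffii RefSeq genes. Symbols and roles given below are the textbook ones of the S. cerevisiae ORF of that name. The files pair no row with a K. phaffii transcript, so a difference in a row is not shown to belong to the K. phaffii counterpart of that gene. None of the 2390 rows was named for CYS4, so its level could not be read here.

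The deposited values run from 5.62 to 15.76 on the log2 scale with a median of 6.64. Array medians over all rows were 6.59 to 6.62 in G12-CBS at 72 h, 6.65 to 6.66 in both the 24 h group and DS56, and 6.60 to 6.62 in the control. A batch effect between arrays was not tested. Most members had a dim signal: 30 of 42 had a mean over the 12 arrays below 7, as had 83.0% of all rows. Signals of 8 or above were seen in 5 members, or 11.9%, against 6.69% of all rows. No detection flags were used here, so no dim member could be called above background. Probes differ in brightness, so a bright or dim row says nothing of how abundant its transcript is beside that of another row.

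The differences of the members from the control were small. Averaged over the 9 engineered arrays, a member stood 0.16 to 1.04 above the mean of the 3 control arrays on the log2 scale, with a median of 0.41, against a median of 0.04 over all rows. The mean difference reached 1, a 2-fold change, in 2 members, SIS1 (YNL007C) and YLR162W. The median member was 0.40 above the control in G12-CBS at 72 h, 0.41 in G12-CBS at 24 h and 0.40 in DS56, comparisons that share the 3 control arrays. The members' median SD among the 3 control arrays was 0.10, against 0.19 over all rows, and a rule that asks the highest control value to lie below every engineered value favours rows with close control arrays. Such a split between engineered and control arrays was met by 1.97% of the table, and the opposite split, with all 9 engineered values below the control, by 74 rows, or 3.1%. Those 74 rows had a median difference of -0.48, and 33.8% of them had a mean of 8 or above.

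**Figure D1:**
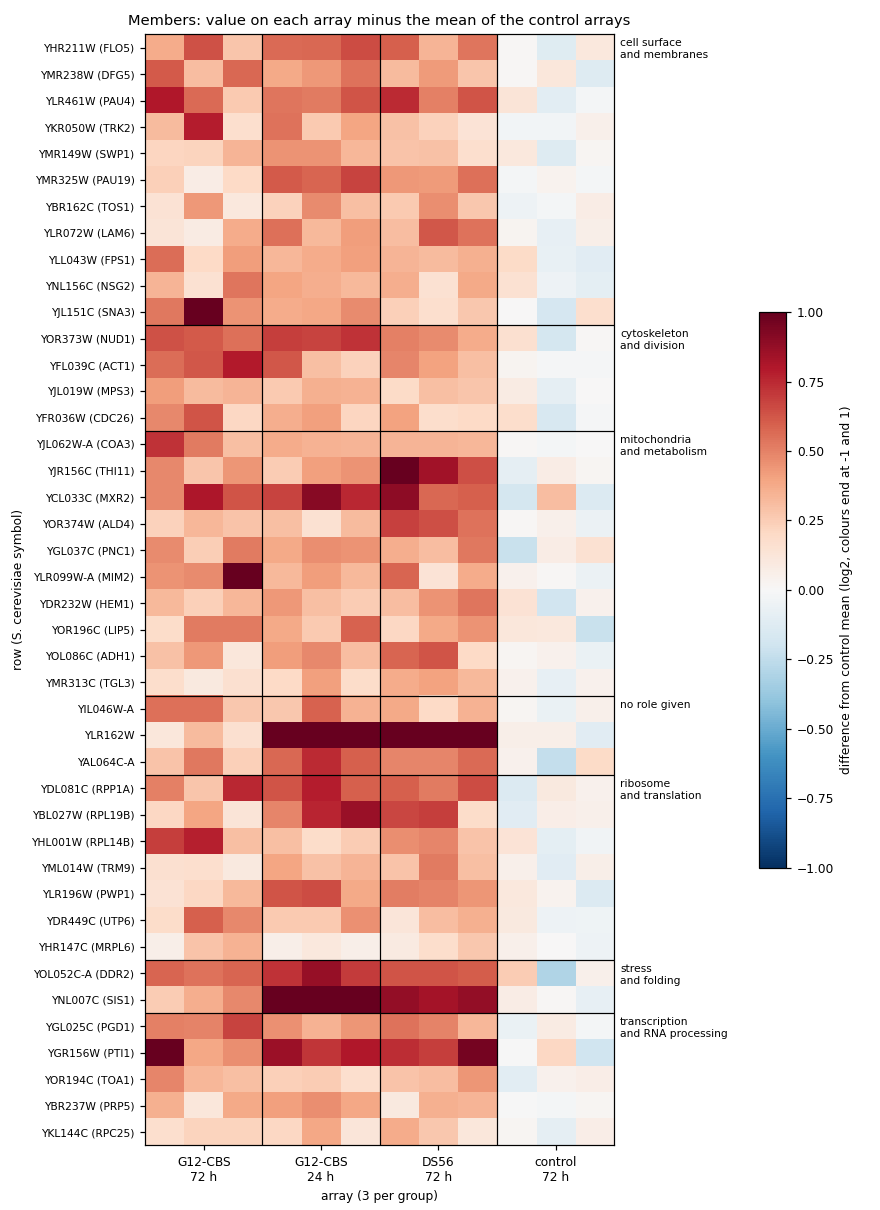
Value of each of the 42 members on each of the 12 arrays, minus the mean of the 3 control arrays of that row (log2; colours end at -1 and 1), with arrays in columns by group and members in rows by role of the S. cerevisiae gene. The 9 engineered columns are above the control in every row, and all 3 arrays of a group reach the end of the colour scale in SIS1 and YLR162W at 24 h and in YLR162W in DS56.

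The 12 members with the widest gap between the lowest engineered and the highest control value are shown in the plot of single arrays, and their gaps run from 0.17 to 0.29. DDR2 (YOL052C-A), a small stress-response protein of S. cerevisiae, had the widest gap. It read 7.64, 7.60 and 7.64 in G12-CBS at 72 h, 7.78, 7.93 and 7.76 at 24 h and 7.69, 7.69 and 7.67 in DS56, against 7.31, 6.76 and 7.11 in the control. Its control arrays differed among themselves by more than its 9 engineered arrays did. COA3 (YJL062W-A), an assembly factor of cytochrome c oxidase, read 7.25, 7.05 and 6.83 in G12-CBS at 72 h, 6.90, 6.88 and 6.87 at 24 h and 6.87, 6.87 and 6.86 in DS56, against 6.55, 6.51 and 6.54 in the control. Its arrays of G12-CBS at 24 h, DS56 and the control each lay within a few hundredths of one another, and those of G12-CBS at 72 h were spread over a wider range.

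**Figure D2:**
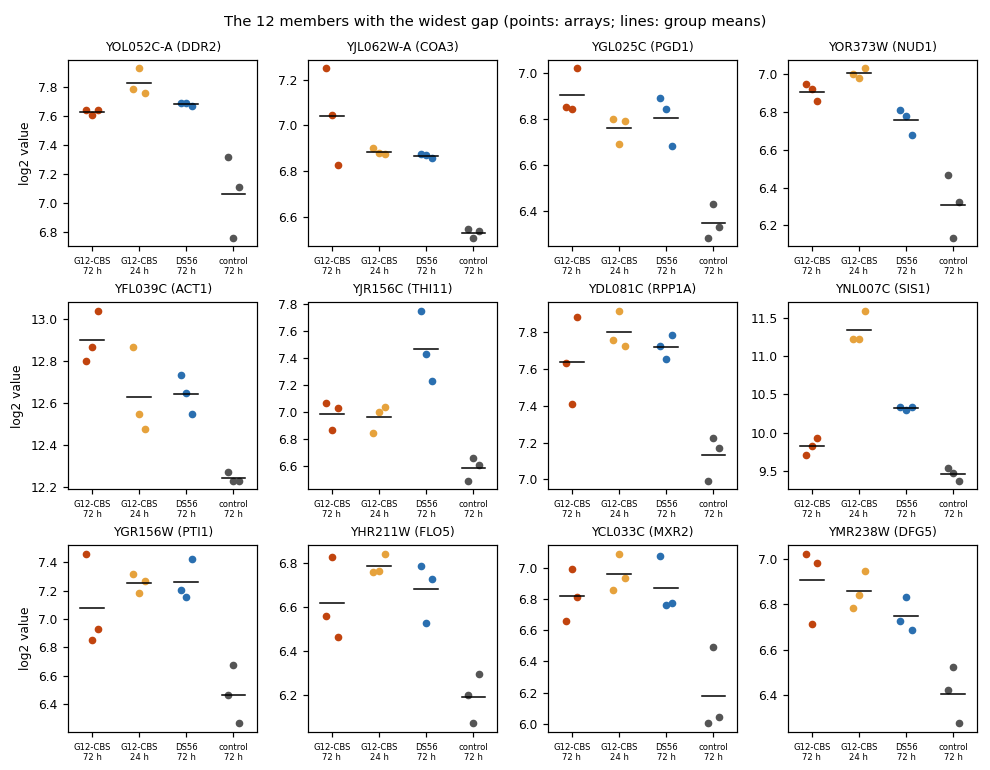
Log2 values of the 12 members with the widest gap, a panel per member with its own vertical axis (axes do not start at 0); points are arrays, 3 per group, and lines are group means. In every panel the 3 control points lie below the 9 engineered points, by 0.17 in DFG5 up to 0.29 in DDR2.

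ACT1 (YFL039C), the actin gene and the row with the highest signal among the members, is often taken as a reference for expression. It read 12.80, 12.86 and 13.04 in G12-CBS at 72 h, 12.86, 12.55 and 12.47 at 24 h and 12.73, 12.65 and 12.55 in DS56, against 12.27, 12.23 and 12.23 in the control. The mean engineered level was 1.39-fold that of the control, whose 3 arrays were close together. NUD1 (YOR373W), a scaffold of the spindle pole body in the mitotic exit network, read 6.95, 6.92 and 6.86 in G12-CBS at 72 h, 7.00, 6.98 and 7.03 at 24 h and 6.81, 6.78 and 6.68 in DS56, against 6.47, 6.13 and 6.32 in the control. Its 3 engineered groups were ordered, with G12-CBS at 24 h above G12-CBS at 72 h and DS56 lowest, and none of these overlapped another. The other members with roles in the cytoskeleton and in cell division were MPS3 (YJL019W), a nuclear envelope protein needed to duplicate the spindle pole body, and CDC26 (YFR036W), a subunit of the anaphase-promoting complex. They averaged 0.31 and 0.34 above the control.

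Of the members, 10 are genes of mitochondria and metabolism in S. cerevisiae, and they averaged 0.26 to 0.70 above the control. The role groups were made for the members only, after their values were seen. The number of members in a group thus has no share of all rows beside it and is no result about that role. MXR2 (YCL033C), which reduces oxidised methionine in proteins, had the largest difference of these. It read 6.66, 6.99 and 6.81 in G12-CBS at 72 h, 6.85, 7.09 and 6.93 at 24 h and 7.07, 6.76 and 6.78 in DS56, against 6.0, 6.49 and 6.05 in the control. Control replicate 2 alone came near the engineered range. THI11 (YJR156C), of the family that makes the pyrimidine part of thiamine, read 7.07, 6.87 and 7.03 in G12-CBS at 72 h, 6.84, 7.00 and 7.04 at 24 h and 7.75, 7.43 and 7.23 in DS56, against 6.49, 6.66 and 6.61 in the control. Here the DS56 arrays stood above all others. ALD4 (YOR374W), a mitochondrial aldehyde dehydrogenase, had the same order, at 6.45, 6.55 and 6.50 in G12-CBS at 72 h, 6.51, 6.37 and 6.54 at 24 h and 6.90, 6.86 and 6.75 in DS56, against 6.23, 6.27 and 6.15 in the control. The alcohol dehydrogenase ADH1 (YOL086C), the lipase TGL3 (YMR313C) that breaks down stored fat, and HEM1 (YDR232W), the first enzyme of heme synthesis, also had their highest mean in DS56. In ADH1 and HEM1 the 3 engineered groups overlapped one another, and in TGL3 DS56 overlapped G12-CBS at 24 h.

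LIP5 (YOR196C), the lipoyl synthase, is an enzyme that itself uses S-adenosylmethionine, as is the tRNA methyltransferase TRM9 (YML014W). LIP5 averaged 6.59 ± 0.19 in G12-CBS at 72 h, 6.60 ± 0.17 at 24 h and 6.53 ± 0.13 in DS56, against 6.18 ± 0.19 in the control (SD, n = 3 each). TRM9 averaged 6.40 ± 0.04, 6.60 ± 0.05 and 6.63 ± 0.13 in the same groups, against 6.26 ± 0.10 in the control. Both were dim rows with narrow gaps, of 0.07 and 0.04. PNC1 (YGL037C), the nicotinamidase that salvages NAD precursors, averaged 0.41 above the control, and its 3 engineered means lay within 6.72 to 6.75. MIM2 (YLR099W-A), a factor for protein insertion into the outer mitochondrial membrane, read 7.05, 7.07 and 7.99 in G12-CBS at 72 h, 6.93, 7.02 and 6.93 at 24 h and 7.18, 6.74 and 6.97 in DS56, against 6.65, 6.61 and 6.54 in the control. Its 3 arrays of G12-CBS at 72 h all lay above those of 24 h, and the size of that difference rests on replicate 3.

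The 7 members of the ribosome and translation averaged 0.16 to 0.59 above the control. RPP1A (YDL081C), an acidic protein of the ribosomal stalk, read 7.63, 7.41 and 7.88 in G12-CBS at 72 h, 7.76, 7.92 and 7.73 at 24 h and 7.73, 7.65 and 7.78 in DS56, against 6.99, 7.23 and 7.17 in the control. The 3 engineered groups overlapped one another. RPL19B (YBL027W) and RPL14B (YHL001W), proteins of the large subunit, differed in the order of the engineered groups. RPL19B read 6.19, 6.39 and 6.12 in G12-CBS at 72 h, 6.47, 6.75 and 6.86 at 24 h and 6.65, 6.68 and 6.17 in DS56, against 5.87, 6.06 and 6.04 in the control. RPL14B read 6.77, 6.86 and 6.38 in G12-CBS at 72 h, 6.38, 6.27 and 6.33 at 24 h and 6.54, 6.56 and 6.36 in DS56, against 6.22, 5.98 and 6.04 in the control. By its mean, G12-CBS at 72 h was the lowest engineered group for RPL19B and the highest for RPL14B. PWP1 (YLR196W), which acts in the assembly of the large subunit, read 6.23, 6.30 and 6.41 in G12-CBS at 72 h, 6.72, 6.74 and 6.47 at 24 h and 6.60, 6.59 and 6.53 in DS56, against 6.20, 6.13 and 5.95 in the control. Its G12-CBS arrays of 72 h lay between the control and the other engineered arrays. UTP6 (YDR449C), of the complex that assembles the small subunit, averaged 0.34 above the control. MRPL6 (YHR147C), of the mitochondrial ribosome, had the smallest difference of all members, 0.16.

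Another 11 members belong to the cell surface, membranes or secretory route, at 0.30 to 0.58 above the control. The largest of these was PAU4 (YLR461W), a seripauperin, from a large family of cell wall mannoproteins of S. cerevisiae. PAU4 read 7.41, 7.17 and 6.87 in G12-CBS at 72 h, 7.14, 7.12 and 7.23 at 24 h and 7.35, 7.11 and 7.24 in DS56, against 6.74, 6.49 and 6.58 in the control. PAU19 (YMR325W), of the same family, read 6.38, 6.21 and 6.33 in G12-CBS at 72 h, 6.75, 6.72 and 6.81 at 24 h and 6.57, 6.56 and 6.69 in DS56, against 6.12, 6.18 and 6.12 in the control. The 3 engineered groups of PAU19 did not overlap one another. FLO5 (YHR211W), a cell wall protein that makes cells adhere to one another, read 6.56, 6.82 and 6.46 in G12-CBS at 72 h, 6.76, 6.76 and 6.84 at 24 h and 6.79, 6.53 and 6.72 in DS56, against 6.20, 6.07 and 6.29 in the control. DFG5 (YMR238W), a cell wall enzyme anchored by glycosylphosphatidylinositol, read 7.02, 6.71 and 6.98 in G12-CBS at 72 h, 6.78, 6.84 and 6.95 at 24 h and 6.73, 6.83 and 6.69 in DS56, against 6.42, 6.52 and 6.28 in the control. In both genes the 3 engineered groups overlapped one another. TOS1 (YBR162C), another cell wall protein, and SWP1 (YMR149W), a subunit of the complex that attaches N-glycans in the endoplasmic reticulum, averaged 0.30 and 0.31. The potassium transporter TRK2 (YKR050W), the glycerol channel FPS1 (YLL043W), the sterol transfer protein LAM6 (YLR072W) and NSG2 (YNL156C), a regulator of sterol synthesis, were between 0.33 and 0.37 above the control. SNA3 (YJL151C), a protein of the multivesicular body pathway, read 7.35, 8.00 and 7.27 in G12-CBS at 72 h, 7.19, 7.21 and 7.30 at 24 h and 7.06, 6.99 and 7.09 in DS56, against 6.83, 6.65 and 6.99 in the control. DS56 replicate 2 and control replicate 3 of SNA3 nearly met.

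Transcription and RNA processing held 5 members. PTI1 (YGR156W), of the cleavage and polyadenylation factor, had the largest difference, 0.73. It read 7.46, 6.85 and 6.93 in G12-CBS at 72 h, 7.32, 7.18 and 7.27 at 24 h and 7.20, 7.16 and 7.43 in DS56, against 6.46, 6.67 and 6.26 in the control. PGD1 (YGL025C), a subunit of Mediator, the complex that links activators to RNA polymerase II, read 6.85, 6.84 and 7.02 in G12-CBS at 72 h, 6.80, 6.69 and 6.79 at 24 h and 6.89, 6.84 and 6.68 in DS56, against 6.28, 6.43 and 6.33 in the control. In PTI1 the 3 engineered groups overlapped, and in PGD1 the G12-CBS arrays of 72 h lay above those of 24 h. TOA1 (YOR194C), a subunit of TFIIA, PRP5 (YBR237W), an RNA helicase of the spliceosome, and RPC25 (YKL144C), a subunit of RNA polymerase III, averaged 0.23 to 0.32 above the control.

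The members also varied among the engineered groups. Setting G12-CBS at 24 h against DS56 at 72 h compares the means of 6 arrays that the rule handled alike. These groups differ in strain, time and feeding. The estimate of the spread in limma's fit used all 12 arrays, and the rule favours rows with close control arrays. The share of members that passed may thus be raised by the choice, which was not tested. By limma's test, with Benjamini-Hochberg adjustment over all 2390 rows, 2 of 42 members passed an adjusted p of 0.05, both higher in G12-CBS at 24 h, where 0.962% of all rows passed, 0.544% upward and 0.418% downward. They were SIS1 and YLR162W. SIS1, an Hsp40 co-chaperone that works with Hsp70, read 11.21, 11.21 and 11.58 in G12-CBS at 24 h, against 10.34, 10.29 and 10.34 in DS56. That is a difference of 1.02 ± 0.13 (SE) on the log2 scale, 2.02-fold, with limma's adjusted p = 3.7e-05, higher in 3 of 3 arrays. The row passed in all 19 alternative fits.

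YLR162W, to which no role is given here, read 12.55, 12.73 and 12.55 in G12-CBS at 24 h, against 11.99, 11.92 and 12.06 in DS56. The difference was 0.62 ± 0.12 (SE), 1.54-fold, with limma's adjusted p = 0.00661. The adjusted p was 0.0562 without DS56 replicate 2 and 0.0634 without G12-CBS 24 h replicate 2, and it ran from 2.48e-05 to 0.0634 over the 19 alternative fits. Without DS56 replicate 3, THI11 passed as well (adjusted p = 0.0463). THI11 (-0.51 ± 0.13, SE, adjusted p = 0.0956), ALD4 (-0.37 ± 0.11, adjusted p = 0.229) and NUD1 (0.25 ± 0.12, adjusted p = 0.852) followed in size and missed the threshold in limma's fit to the 12 arrays. The remaining 37 members differed by less than these. At an unadjusted p under 0.05, 5 of 42 members passed, or 11.9%, and 138 of all rows, or 5.77%. The limit from the shared estimate of the spread holds for these shares too.

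In G12-CBS at 72 h both rows were nearer the control than in the other engineered groups. Their means there were 0.36 above it in SIS1 and 0.20 in YLR162W, where the median member was 0.40 above it. SIS1 read 9.71, 9.82 and 9.94 there, against 9.53, 9.47 and 9.37 in the control. YLR162W read 10.96, 11.16 and 11.01, against 10.90, 10.90 and 10.74 in the control. Set against the same strain at 24 h, the log2 differences were -1.51 ± 0.13 for SIS1 and -1.56 ± 0.12 for YLR162W (SE). Among the engineered groups each of these 2 rows thus had the order G12-CBS at 24 h, DS56 and G12-CBS at 72 h, with no overlap between neighbours. That the control lay below all of them was set by the rule.

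**Figure D3:**
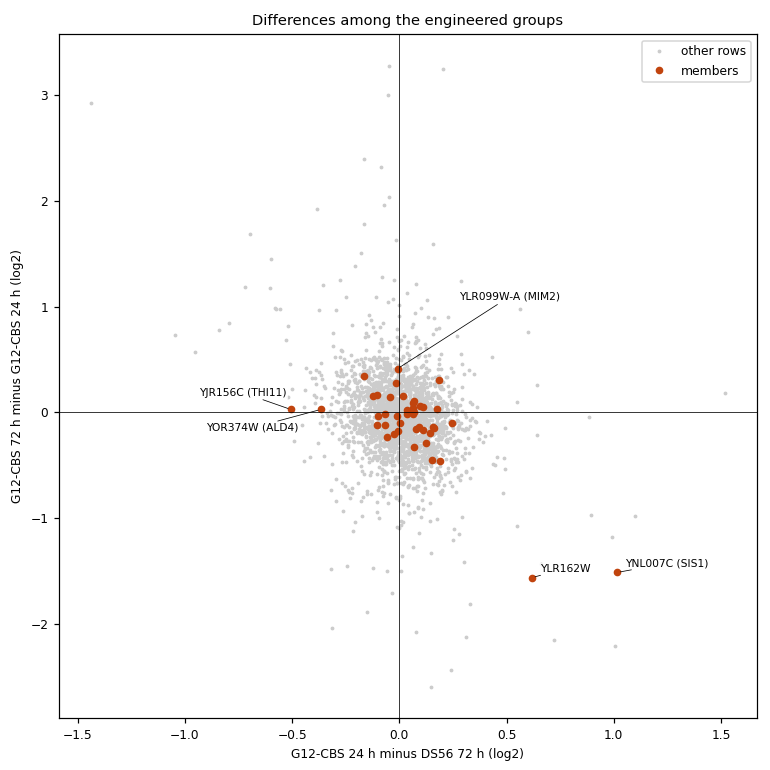
Difference of G12-CBS at 24 h from DS56 at 72 h (horizontal) and of G12-CBS at 72 h from G12-CBS at 24 h (vertical), log2, for the 42 members (orange) and the other rows (grey); both axes use the 24 h arrays. SIS1 and YLR162W lie apart at the lower right, at 1.02 and 0.62 across and -1.51 and -1.56 down, and THI11 is the member farthest to the left, at -0.51 across.

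The other comparisons of G12-CBS at 72 h touch the rule, which set aside rows with this group on top, and are given as a description. Against DS56, 5 members passed limma's adjusted p of 0.05, or 11.9%, where 22.4% of all rows did, 8.33% upward and 14.1% downward. SNA3 was higher, and THI11, ALD4, SIS1 and YLR162W were lower. Against G12-CBS at 24 h, 4 members passed, or 9.52%, where 22.8% of all rows did, 8.24% upward and 14.6% downward. These were SIS1, YLR162W, PAU19 and RPL19B, all lower at 72 h. At least 1 pair of the 3 engineered groups did not overlap in 21 of the 42 members, where this was so in 56.0% of all rows. The mean was highest in G12-CBS at 72 h in 15 members, in G12-CBS at 24 h in 17 and in DS56 in 10.

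By separation of single arrays, all 3 values of G12-CBS at 24 h lay above all 3 of DS56 in 9 members (10.1% of all rows did so) and below them in 3 (10.2%). The 9 were DDR2, NUD1, SIS1, PRP5, SWP1, YLR162W, YAL064C-A, PAU19 and SNA3, and the 3 were THI11, ALD4 and TOA1. YAL064C-A, to which no role is given here, averaged 6.41 ± 0.16 in G12-CBS at 72 h, 6.69 ± 0.10 at 24 h and 6.57 ± 0.04 in DS56, against 6.05 ± 0.22 in the control (SD, n = 3 each). YIL046W-A, likewise without a role, is a bright row and read 10.17, 10.17 and 9.89 in G12-CBS at 72 h, 9.89, 10.21 and 9.97 at 24 h and 10.00, 9.82 and 9.97 in DS56, against 9.64, 9.56 and 9.67 in the control. Its engineered groups overlapped.

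The edge of the rule ran through rows with very small gaps. The gap was above 0.1 in 16 members and above 0.2 in 5, and its median was 0.08. The 3 narrowest members were MRPL6, SNA3 and CDC26, with gaps of 0.0059, 0.0044 and 0.0043. MRPL6 read 6.64, 6.87 and 6.93 in G12-CBS at 72 h, 6.64, 6.69 and 6.63 at 24 h and 6.67, 6.75 and 6.85 in DS56, against 6.63, 6.58 and 6.53 in the control. CDC26 read 7.23, 7.38 and 6.95 in G12-CBS at 72 h, 7.11, 7.16 and 6.97 at 24 h and 7.15, 6.93 and 6.94 in DS56, against 6.92, 6.59 and 6.74 in the control. Just outside stood YPR080W, YJR123W and YGR236C, in which the lowest engineered and the highest control value were the same number, 15.04, 9.56 and 10.21. These are bright rows, where the table holds few distinct levels. YPR080W, which encodes translation elongation factor eEF1A in S. cerevisiae, read 15.10, 15.04 and 15.10 in G12-CBS at 72 h, 15.04, 15.10 and 15.04 at 24 h and 15.04, 15.45 and 15.10 in DS56, against 14.95, 15.04 and 14.95 in the control. YJR123W, a protein of the small ribosomal subunit, read 9.56, 9.56 and 9.64 in G12-CBS at 72 h, 9.71, 9.84 and 9.92 at 24 h and 9.97, 9.97 and 9.94 in DS56, against 9.56, 9.53 and 9.42 in the control. YGR236C read 11.16, 11.51 and 11.28 in G12-CBS at 72 h, 11.16, 11.58 and 11.34 at 24 h and 10.48, 10.21 and 10.74 in DS56, against 10.21, 10.17 and 10.11 in the control. In the last row DS56 stood next to the control and below both G12-CBS groups.

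**Figure D4:**
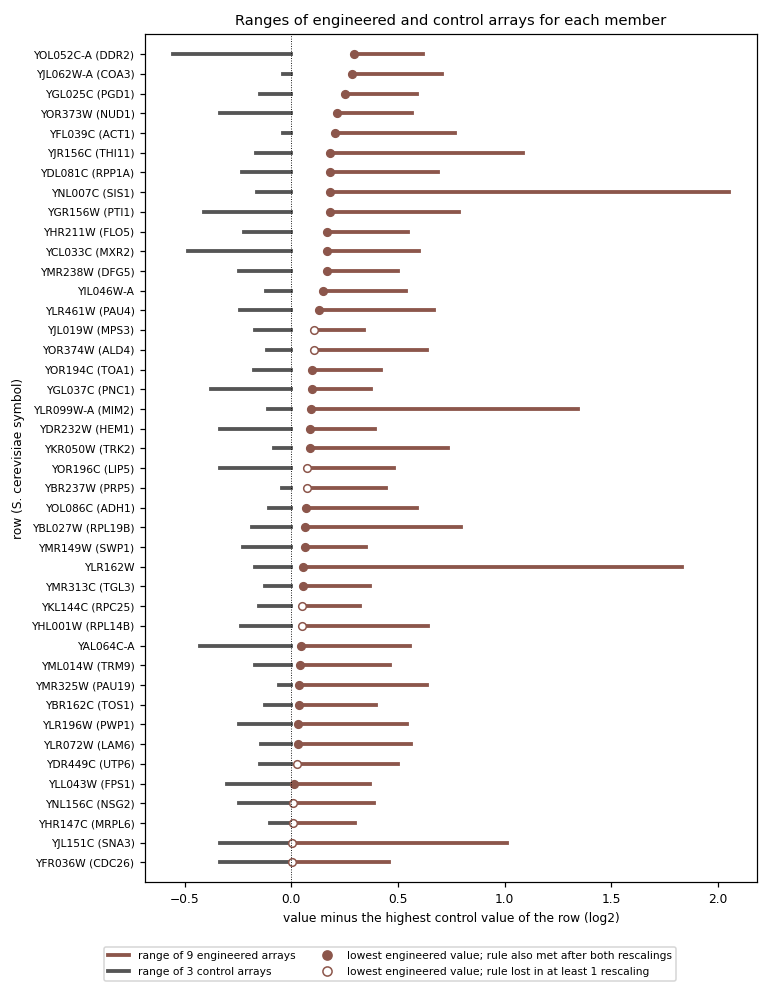
Range of the 9 engineered arrays (brown) and of the 3 control arrays (grey) for each member, relative to the highest control value of the row (log2), ordered by gap. Filled circles mark the lowest engineered value of the 31 members that met the rule after both rescalings, open circles that of the 11 that did not, and most open circles lie near 0.

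Since the arrays of G12-CBS at 24 h and of DS56 had the higher medians, the rule was applied again after rescaling. With each array centred on its median, 37 rows met it, 35 of the 42 members among them, and after quantile normalization 33 rows, with 31 members. The 31 met it on all 3 scales. Of the 11 lost after quantile normalization, 10 then overlapped the control: PRP5, UTP6, CDC26, RPL14B, MRPL6, SNA3, RPC25, NSG2, LIP5 and ALD4. In MPS3 the gap to the control remained, and all 3 values of G12-CBS at 72 h came out on top. The 12 members with the widest gaps were among the 31. Leaving out single arrays changed the number of rows most for the control. Without control replicate 1, 2 or 3 the rule was met by 125, 98 or 87 rows. It was met by 65, 62 or 69 rows without G12-CBS 72 h replicate 1, 2 or 3. Leaving out an array can only loosen the split, and the control has 3 arrays beside 9 engineered ones. These counts are thus no measure of how unusual a control array is.

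Relatives of the members, chosen after the values were seen, did not all share their split. Near-identical copies can share probe signal, so rows of such families are uncertain. Of 16 seripauperin rows in the table, 15 had a higher engineered than control mean, as had 56.7% of all rows. PAU4 and PAU19, chosen for that direction, are 2 of the 15. The single groups did not all share it. The DS56 mean was below the control in YLR037C, YLL025W, YFL020C, YCR104W and YGL261C. In YLR037C, YHL046C and YIL176C the mean of G12-CBS at 24 h was below the control. Besides PAU4 and PAU19 only YAR020C met the split, and it was set aside because G12-CBS at 72 h was on top. The THI5 family had 3 rows in the table, all with higher engineered means. YFL058W averaged 7.30 ± 0.39 in G12-CBS at 72 h, 7.60 ± 0.08 at 24 h and 7.84 ± 0.04 in DS56, against 6.96 ± 0.34 in the control, with overlap. In both YFL058W and YNL332W, as in THI11, the mean was highest in DS56. The partner of RPL19B, YBR084C-A, had a lower engineered than control mean, at 6.39 ± 0.08 in G12-CBS at 72 h, 6.86 ± 0.10 at 24 h and 6.91 ± 0.13 in DS56, against 6.95 ± 0.26 in the control (SD, n = 3 each). YDL130W (RPP1B), the paralog of RPP1A, averaged 6.30 ± 0.16, 7.08 ± 0.09 and 7.22 ± 0.11 in these groups, against 6.08 ± 0.12, and missed the split, with a gap of -0.03. The other rows of ribosomal stalk proteins overlapped the control further, with gaps of -0.11 in YLR340W, -0.37 in YDR382W and -0.49 in YOL039W.

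Members on gene lists for 6 pathways were counted, where 42 of all 2390 rows were members. At that share, lists of these sizes hold few members or none, so the counts are no result about the pathways. The lists are partial: SIS1 is not on the chaperone list, LIP5 and TRM9 are not on that of enzymes using S-adenosylmethionine, and RPL19B and RPL14B are not on the ribosomal list, so the counts below do not cover these members. Of 34 genes of sulfur amino acid metabolism and the methyl cycle, 20 were in the table, and the 2 that met the split were the S-adenosylmethionine synthetase rows left out by name. YDR502C averaged 15.76 ± 0 in G12-CBS at 72 h, 15.70 ± 0.10 at 24 h and 15.76 ± 0 in DS56, against 10.47 ± 0.29 in the control, and 15.76 is the top of the scale. YLR180W averaged 8.04 ± 0.06, 8.72 ± 0.02 and 8.75 ± 0.18 in the same order, against 7.06 ± 0.41 in the control (SD, n = 3 each). The gap of YDR502C was 4.82 and that of YLR180W 0.50, where the widest member had 0.29. None of the 5 measured genes on a list of 9 enzymes that use S-adenosylmethionine was a member. The list of central carbon and formaldehyde oxidation held 1 member, ADH1, among 22 measured rows, and that of cytosolic ribosomal proteins 1, RPP1A, among 66. Chaperones, with 11 measured rows, and the respiratory chain, with 14, held 0. The opposite split, with all engineered values below the control, was met by 5 rows of the ribosomal list, 2 of central carbon and 1 of chaperones. On the other lists 0 rows met it, where 3.1% of all rows did.

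Between G12-CBS at 24 h and DS56, 3 of the 22 central carbon rows passed limma's adjusted p of 0.05 upward and 0 downward, and 0 of the 66 ribosomal protein rows upward and 6 downward, where 0.544% of all rows passed upward and 0.418% downward. The other 4 lists had 0 calls in that comparison. The median difference of the engineered arrays from the control was 0.06 for the sulfur list, 0.06 for the enzymes that use S-adenosylmethionine, 0.02 for central carbon, 0.06 for chaperones, 0.10 for the respiratory chain and 0.08 for ribosomal proteins, against 0.04 over all rows.

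As S. cerevisiae ORFs, the members had a median coding length of 962 bases, against 1133 bases for all rows, and ranged from 165 bases in YIL046W-A to 3228 bases in FLO5. Among rows with a mean signal below 7 the medians were closer, at 1219.5 bases for members and 1245 for all such rows. Small ORFs with a suffixed name made up 5 of 42 members, or 11.9%, against 5.73% of all rows. On the S. cerevisiae assembly sacCer2, NUD1 (chromosome XV, 1036832 to 1039387) and ALD4 (1039838 to 1041397) are neighbours with 450 bases between them. TOA1 (711684 to 712544) and LIP5 (715594 to 716838) lie 3049 bases apart on the same chromosome. Among the engineered groups NUD1 was highest in G12-CBS at 24 h and ALD4 in DS56. The gene order of K. phaffii was not used here.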

How the data were processed

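Total RNA of 12 samples was measured on 12 one-colour arrays, 3 for each of 4 groups, assigned from the sample titles. The deposited values are log2 expression values, and the submitters' processing notes name RMA as the method. For its version, background correction and any filter, the sources give nothing. The series' design text puts 5777 genes on an array, at 8 probes per gene, and the table analysed here holds 2390 rows. Scanner files, slides and scan dates were not used, and precision is limited by the number of arrays.

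The values were used as deposited. All 2390 rows entered 1 linear model of the 4 groups (limma 3.58.1, R 4.3.3, functions lmFit and eBayes), with two-sided tests, with Benjamini-Hochberg adjustment per comparison and a threshold of 0.05. SE is limma's moderated standard error. Contrasts with the control were fitted too, and their tests are not reported because the rule chose the members on them. The code of the model was also run on simulated data. Recovery was required there only for planted differences larger than any among the members. That run is thus no measure of how well differences of their size are found. Coordinates and coding lengths are those of the sacCer2 gene table in GenomicFeatures 1.54.1, which held all 2390 row names. Figures were drawn with matplotlib 3.10.9.

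The members, gene lists and tests were chosen with earlier results of these data known, and the role groups and relatives after the values were seen. Every member is named. Values on single arrays are given by rule for the widest and narrowest gaps, the rows nearest the edge and the largest differences among engineered groups, and also for PAU4 and YIL046W-A, which were chosen after their values were seen. Same-numbered arrays of different groups had deviations that correlated at -0.12 to 0.18, above 0.1 in 2 of 18 pairs. Both of these were between G12-CBS at 72 h and at 24 h. In that comparison the same-numbered arrays correlated at 0.07, 0.12 and 0.18, and the differently numbered ones at -0.14 to 0.02. Whether the cultures of these groups were paired was not tested. Replicate numbers were not treated as pairs in the main fit. Alternatives were a replicate block, only the 6 arrays compared, centring, quantile normalization, array weights, leaving out the dimmest 25% of rows, robust moderation with a trend, a wider margin and leaving out each array.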

Additional observations from a re-analysis of the deposited data

How the results depend on the processing

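The rule was met by 42 rows, by 16 with a margin of 0.1 and 5 with a margin of 0.2, and by 43 to 125 when any 1 array was left out. Leaving out an array can only loosen the split between engineered and control arrays. Centring (37), quantile normalization (33) and removal of the dimmest 25% of rows (30) kept the count within 1.5 times. Between G12-CBS at 24 h and DS56, 2 members and 23 rows passed. With only the 6 arrays compared these were 4 and 66, with array weights 4 and 76, and with 1 array left out 1 to 3 and 15 to 29. Of the members, 5 passed in G12-CBS at 72 h against DS56, 3 with only the 6 arrays compared, and 2 to 5 with 1 array left out, with 355 to 586 of all rows in place of 535. For 72 h against 24 h, 4 members passed, 2 without the dimmest 25% of rows, which leaves 30 members, and 3 to 5 with 1 array left out, with 369 to 616 of all rows in place of 546. The replicate block gave 2, 5 and 4 members and 20, 534 and 539 rows in the 3 comparisons, and so changed no count of members. THI11 and ALD4 passed in G12-CBS at 24 h against DS56 with only the 6 arrays compared (adjusted p = 0.0158 and 0.0349, limma) and with array weights (0.00069 and 0.0108). The cause of these changes was not tested. No value of the 5 members followed through these fits changed sign. No group held the 4 arrays that a check for outlying arrays needs.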
